A study of Mus musculus with 4 samples.

Results

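The signalling lymphocytic activation molecule (SLAM) receptors, their adaptor SAP and the kinase Fyn were followed through thymic invariant natural killer T (iNKT) cells, as 8 genes of the 31053 in the deposited matrices. The members were the rows whose gene symbol was Slamf1, Slamf6, Ly9, Cd84, Cd244, Cd48, Sh2d1a or Fyn, and each symbol had a single row. The cells were untreated thymocytes of 8 to 9 week old mice, stained with the CD1d tetramer loaded with PBS57, a lipid antigen of iNKT cells, and sorted as an equal mix of CD44low and CD44high cells. There were 2 libraries of wild-type C57BL/6 mice and 2 of Hivep3-/- mice, which carry a knockout of the gene for the zinc finger protein HIVEP3 on the C57BL/6 background, and the labels name each library after 1 mouse. Each library was made with the 10x Genomics 5′ chemistry, which counts transcripts as unique molecular identifiers (UMIs).

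Conventional T cells are selected on thymic epithelium, whereas iNKT cells are selected by CD1d on other double positive thymocytes, and SLAM receptors on both thymocytes bind each other across that contact. Slamf1, Slamf6, Ly9 (SLAMF3) and Cd84 (SLAMF5) encode receptors that bind their own kind on the neighbouring cell, while Cd244 (2B4) encodes a receptor of natural killer and cytotoxic cells whose ligand is the protein of Cd48. SAP, the product of Sh2d1a, is a small SH2 adaptor that docks on the tails of these receptors and recruits Fyn, a Src family kinase that also signals from the T cell receptor. Mice without SAP or Fyn have few or no iNKT cells. Stage 0 cells are the earliest iNKT precursors, still CD24 high, and they give rise to iNKT1, iNKT2 and iNKT17 cells, which resemble T helper type 1, 2 and 17 cells.

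Between 3651 and 7231 cells per library were kept. Clusters were grouped by marker genes into stage 0-like (1272 cells), cycling-like (2019), iNKT2-like (3064), iNKT17-like (612) and iNKT1-like cells (9919), and 2761 cells stayed unnamed. UMIs were summed per library and class, giving 20 sums of 784539 to 19564174 UMIs, and levels are given as scaled CPM, the UMIs of a gene per 1000000 UMIs of the sum, with the sums brought to 1 scale by the trimmed mean of M values (TMM). The 14 stage 0 markers summed to a level of 7213 to 8387 scaled CPM in stage 0-like cells and to at most 3139 in any other class. Without that scaling the median gene was 0.075 to 0.19 higher in Hivep3-/- on the log2 scale, depending on the class, and with it between -0.011 and 0.032. Since a sum holds both, fewer cells with a transcript and less transcript per cell cannot be told apart in it. Over all cells the targeted gene, Hivep3, stood at 39.9 and 38.5 in C57BL/6 mice but at 96.7 and 68.4 in mice labelled Hivep3-/-, so it was higher in the latter. Which part of the gene was deleted was not given in the sources used here, so these 5′ counts do not check the labels, and each genotype below is the labelled one. C57BL/6 mouse 1 held 14609 UMIs of Xist and 0 of the Y-linked genes, whereas the other 3 libraries held at most 25 and at least 3568, so the C57BL/6 group mixed a female and a male library. The paper describes the C57BL/6 mice of its single-cell experiments as female, although its methods name mice of both sexes. C57BL/6 mouse 2, with 4 UMIs of Xist and 4120 of the Y-linked genes, does not match that description. Cell barcodes were shared by 2 libraries in 251 cases and by 3 libraries in 1 case.

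The 6 SLAM family members lay within 394 kb of chromosome 1 (chr1:171559193-171953170, mm10), in the order Cd244, Ly9, Cd48, Slamf1, Cd84 and Slamf6. Fyn lay at chr10:39368855-39565381 and Sh2d1a at chrX:42502453-42529330, both on the plus strand. In the GENCODE vM21 annotation Ly9 (chr1:171588624-171607410, minus strand) lies inside the span of Cd244 (chr1:171559193-171609746, plus strand). Whether the counting used strand was not stated in the sources, and without strand reads of the overlap cannot be told apart. The promoter windows of Slamf6, which had the widest range over the classes of the members other than Cd244, of Cd244, the member that differed between the genotypes, and of Cd48, whose protein binds that of Cd244, are shown from RefSeq (GRCm38.p6), from 250 bases before to 50 bases after the annotated start, with E-box letters (CANNTG) in capitals.
Slamf6, chr1:171917212-171917511, plus strand: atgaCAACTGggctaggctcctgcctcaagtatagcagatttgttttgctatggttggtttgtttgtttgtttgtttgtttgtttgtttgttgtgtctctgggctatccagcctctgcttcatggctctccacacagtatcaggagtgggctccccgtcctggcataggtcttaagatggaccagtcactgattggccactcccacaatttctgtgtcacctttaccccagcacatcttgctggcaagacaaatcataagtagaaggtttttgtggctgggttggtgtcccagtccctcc
Cd244, chr1:171558943-171559242, plus strand: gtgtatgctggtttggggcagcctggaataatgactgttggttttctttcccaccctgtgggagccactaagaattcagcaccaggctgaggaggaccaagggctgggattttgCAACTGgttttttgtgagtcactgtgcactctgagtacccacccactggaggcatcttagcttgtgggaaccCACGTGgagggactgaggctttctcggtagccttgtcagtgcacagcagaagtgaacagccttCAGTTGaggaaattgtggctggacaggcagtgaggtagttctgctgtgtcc
Cd48, chr1:171681742-171682041, plus strand: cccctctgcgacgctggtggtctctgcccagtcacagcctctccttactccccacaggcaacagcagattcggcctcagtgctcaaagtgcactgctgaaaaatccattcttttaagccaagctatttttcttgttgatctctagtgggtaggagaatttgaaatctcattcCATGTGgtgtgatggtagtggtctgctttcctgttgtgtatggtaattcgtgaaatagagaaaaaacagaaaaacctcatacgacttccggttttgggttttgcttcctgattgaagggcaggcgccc
E-boxes are the letters bound by E proteins, which drive early thymocyte genes, and 72.3% of all 32851 promoter windows held at least 1. Slamf6 had 1 E-box, which began 246 bases before the start, Cd48 had 1 and Cd244 had 3. On either strand, the T-box core GGTGTG, bound by T-bet in iNKT1 cells and present in 19% of windows, was found in Cd48 but not in Cd244 or Slamf6, and the RUNX core TGTGGT, present in 16.8% of windows, was likewise found in Cd48 only of these 3. In Cd48 the E-box, RUNX and T-box letters began 78, 76 and 73 bases before the start and overlapped one another. The TCF/LEF core CTTTGA, held by 16% of windows, was in Cd48 only of these 3. These matches describe letters in the windows and not bound sites.

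Slamf6, whose protein is Ly108, had the widest range over the classes among the 7 members other than Cd244, which had no UMIs in some sums. In C57BL/6 mice 1 and 2 it stood at 389 and 439 scaled CPM in stage 0-like cells, at 98.6 and 142 in iNKT2-like cells, at 86.2 and 113 in cycling-like cells, at 23.5 and 17.9 in iNKT17-like cells and at 4.24 and 6.40 in iNKT1-like cells. Stage 0-like cells thus held 77.8 times the mean level of iNKT1-like cells, and no library of one class overlapped the other. Against the mean of the other 4 classes, the log2 difference was 3.70 (standard error, SE, 0.088, adjusted p = 2.0e-26, edgeR) in stage 0-like and -4.23 (SE 0.15, adjusted p = 5.4e-22) in iNKT1-like cells. All 4 steps between neighbours in that order passed the test, the smallest being iNKT2-like over cycling-like cells (log2 0.25, SE 0.091, adjusted p = 0.026). In Hivep3-/- mice the same fall was seen from 379 and 468 in stage 0-like cells to 5.03 and 6.17 in iNKT1-like cells, and there the step from iNKT17-like to iNKT1-like cells did not pass (adjusted p = 0.48). Cells with at least 1 Slamf6 UMI, after every cell was thinned to 2000 UMIs, made up 54.9% and 50.9% of stage 0-like and 0.561% and 0.880% of iNKT1-like cells of C57BL/6 mice 1 and 2 (64.7%, 70.2%, 1.37% and 2.28% before thinning).

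Slamf1 and Cd84 were also highest in stage 0-like cells. Slamf1, whose protein is SLAM (CD150), stood there at 21.8 and 20.6 in C57BL/6 and at 40.2 and 26.4 in Hivep3-/- mice, on sums of 18 to 124 UMIs. In iNKT1-like cells it stood at 5.83, 6.96, 4.61 and 4.39 in the same order of libraries, below every stage 0-like value. Its stage 0-like level exceeded the next class, iNKT17-like cells, by 0.87 (SE 0.35, adjusted p = 0.046) in C57BL/6 and by 1.06 (SE 0.27, adjusted p = 0.0019) in Hivep3-/- mice, while no step between neighbours in the order of the 4 other classes passed in C57BL/6 mice. Over more than 1 step, cycling-like cells, where Slamf1 was lowest, were below iNKT17-like (log2 -1.13, SE 0.35, adjusted p = 0.0099) and iNKT2-like cells (log2 -0.56, SE 0.22, adjusted p = 0.037) of C57BL/6 mice. Cd84 stood at 172 and 169 in C57BL/6 stage 0-like cells, at 136 and 111 in iNKT17-like cells, at 83.0 and 83.7 in iNKT2-like cells, at 61.4 and 59.98 in iNKT1-like cells and at 57.8 and 60.6 in cycling-like cells. Every step of this order passed except the last, between iNKT1-like and cycling-like cells (log2 0.083, SE 0.073, adjusted p = 0.32).

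Ly9 was highest in iNKT1-like cells of both genotypes, and lowest in stage 0-like cells of C57BL/6 but in iNKT17-like cells of Hivep3-/- mice (means of 71.96 against 79.6 in stage 0-like cells). It stood at 151 and 136 in C57BL/6 iNKT1-like cells and at 142 and 127 in those of Hivep3-/- mice, and at 61.1, 65.2, 82.6 and 76.6 in stage 0-like cells. All iNKT1-like values thus lay above all stage 0-like values, and in C57BL/6 mice iNKT1-like cells exceeded the next class, iNKT2-like cells, by 0.69 (SE 0.088, adjusted p = 5.2e-08). The steps from iNKT2-like to cycling-like (log2 0.079, SE 0.091, adjusted p = 0.51) and from iNKT17-like to stage 0-like cells (log2 0.040, SE 0.17, adjusted p = 0.89) did not pass.

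**Figure D1:**
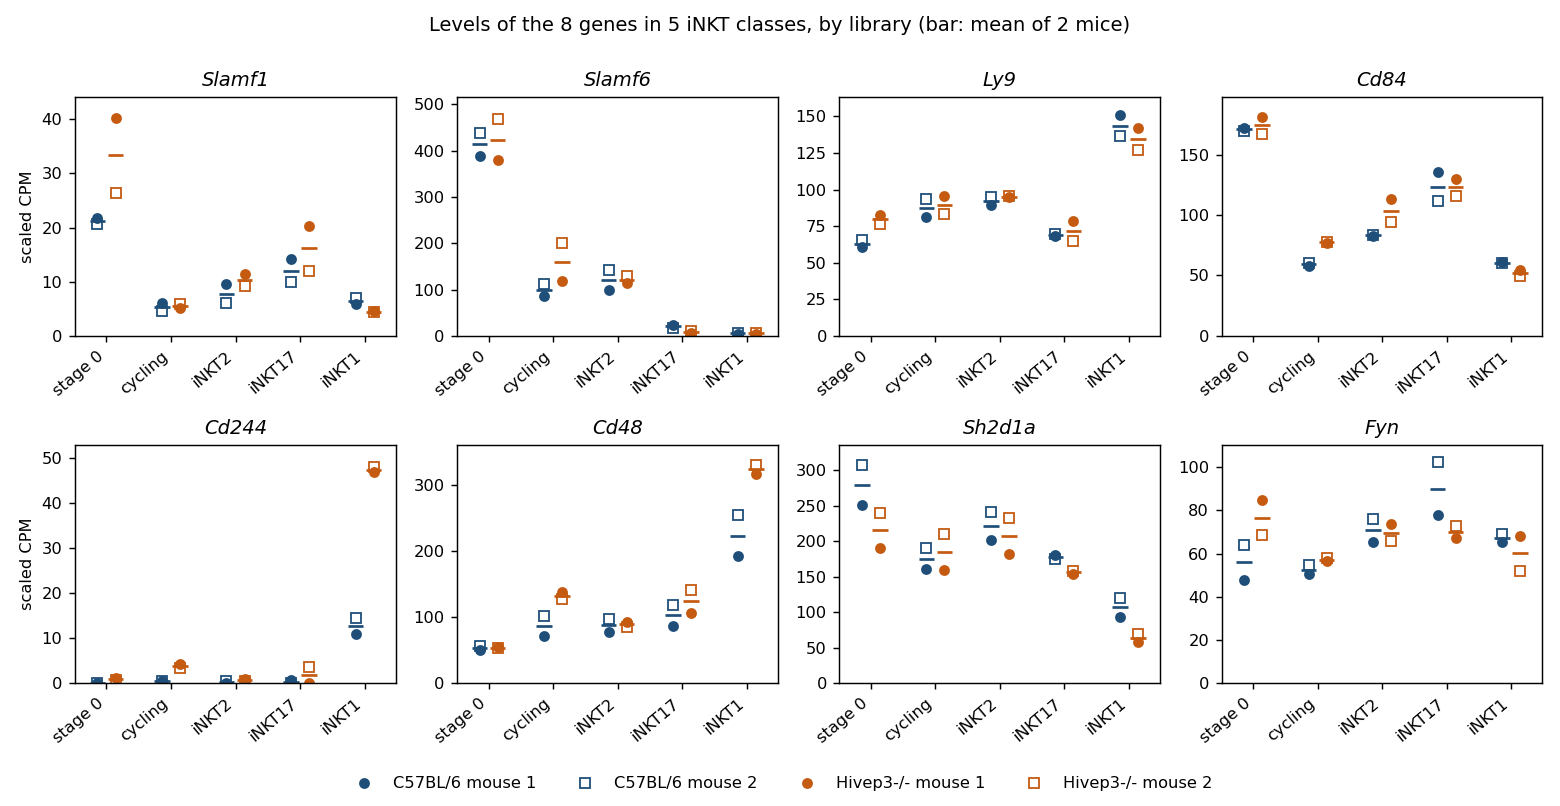
Level of each gene (y axes, scaled CPM, each starting at 0) in the 5 classes (x axes), with 1 point per library and a bar at the mean of the 2 mice of a genotype. Slamf6, Slamf1, Cd84 and Sh2d1a were highest in stage 0-like cells of both genotypes, Ly9, Cd244 and Cd48 in iNKT1-like cells, and Cd244 stood at 11.03 and 14.5 against 46.9 and 48.1 in iNKT1-like cells of the 2 genotypes.

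Cd48, which encodes the ligand of 2B4, rose toward iNKT1-like cells. It stood at 50.1 and 57.2 in C57BL/6 stage 0-like cells and at 192 and 254 in iNKT1-like cells, a ratio of means of 4.16, and at 55.1, 53.2, 317 and 330 in Hivep3-/- mice, a ratio of 5.98. Between these ends, the steps among cycling-like, iNKT2-like and iNKT17-like cells of C57BL/6 mice did not pass. Cd244 was near 0 outside iNKT1-like cells of C57BL/6 mice. It had 0 UMIs in both stage 0-like sums, which allows up to 1.64 and 3.43 scaled CPM, 1 and 0 in iNKT17-like, 2 and 2 in iNKT2-like, 6 and 3 in cycling-like and 104 and 129 UMIs in iNKT1-like cells. The log2 difference of the iNKT1-like from the cycling-like level was 4.63 (SE 0.35, adjusted p = 2.7e-13), and the other classes could not be ordered at these counts.

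Sh2d1a had its highest level in stage 0-like cells of C57BL/6 mice, at 251 and 308, and its lowest in iNKT1-like cells, at 94.1 and 120. Neighbours differed from stage 0-like to iNKT2-like (log2 0.42, SE 0.087, adjusted p = 2.3e-04), from iNKT2-like to iNKT17-like (log2 0.31, SE 0.095, adjusted p = 0.018) and from cycling-like to iNKT1-like cells (log2 0.68, SE 0.079, adjusted p = 2.9e-09), whereas the step from iNKT17-like to cycling-like cells did not pass (adjusted p = 0.93). In Hivep3-/- mice the stage 0-like level (191 and 240) was not separated from that of iNKT2-like cells (182 and 232, adjusted p = 0.40), while iNKT1-like cells were again lowest, at 58.6 and 69.1. Fyn had the narrowest range of the 8 genes. Its C57BL/6 means ran from 52.6 in cycling-like to 90.0 in iNKT17-like cells, a ratio of 1.71, and the step from iNKT17-like to iNKT2-like cells passed (log2 0.33, SE 0.12, adjusted p = 0.047). In Hivep3-/- mice its mean was highest in stage 0-like cells, at 76.5, which exceeded iNKT1-like cells by 0.36 (SE 0.11, adjusted p = 0.0041) and cycling-like cells by 0.41 (SE 0.12, adjusted p = 0.0098), although no step between neighbouring classes passed.

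Over the 5 contrasts of a class with the mean of the other 4, 26 of 40 member results passed in C57BL/6 mice, 12 higher and 14 lower, and 27 of 40 passed in Hivep3-/- mice. Without Cd244, which had 0 to 4 UMIs in the sums of 3 classes, the counts were 25 and 24 of 35. In C57BL/6 mice the contrast of stage 0-like cells was passed by 6 of the 8 members, beside 39.1% of all 10998 genes tested, that of iNKT1-like cells by 7 (56.5%), that of cycling-like cells by 5 (51.8%), and those of iNKT2-like and iNKT17-like cells by 4 each (26.8% and 27.0%). In Hivep3-/- mice the stage 0-like contrast was passed by the 7 members other than Cd244, and by Cd244 on 4 and 2 UMIs (48.5% of 10465 genes), the iNKT1-like one by 7 (51.9%), and the cycling-like (44.1%), iNKT2-like (24.5%) and iNKT17-like (28.7%) ones by 4 each, of which Cd244 in the iNKT2-like contrast rested on 4 and 2 UMIs. For pairs of classes in C57BL/6 mice, stage 0-like cells differed in 35.2%, 37.7%, 37.2% and 49.8% of genes from cycling-like, iNKT2-like, iNKT17-like and iNKT1-like cells. Cycling-like cells differed from the last 3 of these in 44.2%, 42.2% and 68.4%, iNKT2-like from iNKT17-like and iNKT1-like cells in 20% and 51.1%, and iNKT17-like from iNKT1-like cells in 27.6%. In Hivep3-/- mice the shares in this order of pairs were 32.9%, 44.4%, 43.3% and 58.4%, then 41.8%, 42.6% and 59.3%, then 16.5% and 37.0%, and last 22.2%. Such differences were thus common over the whole transcriptome. The cells were clustered without these 8 genes, but on other genes of the same cells, so that the tests compare classes that were built to differ. The sort fixed the mix of CD44low and CD44high cells, so shares of classes are not compared.

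**Figure D2:**
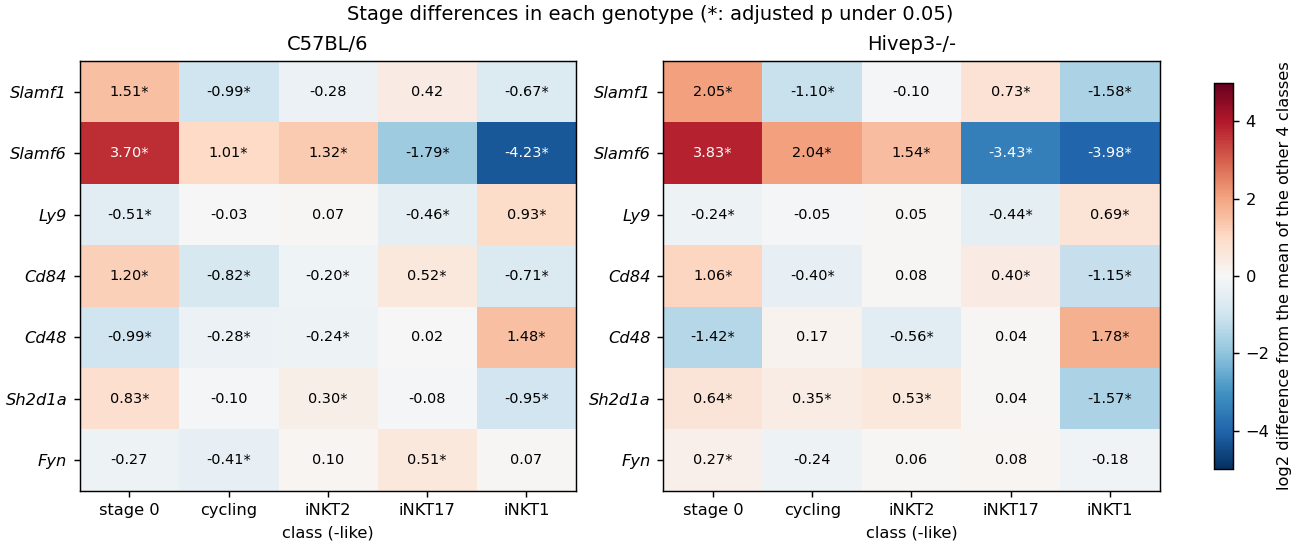
Colour and number give the log2 difference of a gene in a class from the mean of the other 4 classes, in C57BL/6 (left) and Hivep3-/- mice (right), from 2 libraries each, and a star marks an adjusted p under 0.05. Slamf6 ran from 3.70 in stage 0-like to -4.23 in iNKT1-like cells of C57BL/6 mice and from 3.83 to -3.98 in Hivep3-/- mice, and Cd244 is left out because classes with 0 to 4 UMIs give no usable difference.

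The stage 0-like class was not uniform in these genes. At a clustering resolution of 1.2 it split into a cluster of 699 cells led by Itm2a, Siae, Slc29a1 and Nrgn and a cluster of 567 cells led by Cd24a, Cd8b1, Cd8a and Nr4a1, with median depths of 7467 and 2678 UMIs. Slamf1 stood at 7.67, 14.4, 22.8 and 14.7 in the first and at 65.1, 42.0, 89.2 and 64.5 in the second, so that within each mouse the second was higher. Slamf6 went the other way, with 462, 490, 455 and 544 against 220, 222, 165 and 232, and Cd84 was higher in the second (249, 240, 265 and 282 against 153, 154, 151 and 133). All 10 double positive thymocyte markers had UMIs in the stage 0-like class, where they summed to 186, 199, 173 and 246 scaled CPM, against 35.4 to 142 in the other classes. When the 283 of 1272 stage 0-like cells with a UMI of Cd8a, Cd8b1, Rag1, Rag2 or Dntt, and such cells of the other classes, were left out, 26 of 40 stage results passed in C57BL/6 mice. The stage 0-like difference from the mean of the other classes was then 3.68 for Slamf6 (3.70 with all cells), 1.42 for Slamf1 (1.51) and 1.188 for Cd84 (1.205), and each passed. The difference of Slamf1 between the genotypes in stage 0-like cells, which did not pass, was 0.39 without these cells and 0.63 with them.

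Between the genotypes, Cd244 was the single member that passed the test within a class. In iNKT1-like cells it stood at 11.03 and 14.5 in C57BL/6 mice, from 104 and 129 UMIs, and at 46.9 and 48.1 in Hivep3-/- mice, from 904 and 592 UMIs. The means were 12.8 ± 2.44 and 47.5 ± 0.880 (SD, n = 2), so that the gap between genotypes was wider than the spread within either. The log2 difference was 1.89 (SE 0.18, adjusted p = 0.0017), where 0.875% of all 10744 genes tested passed. The iNKT1-like class itself had a different make-up in the genotypes: the Klrc1 and Fgl2 cluster held 61.5% and 56.4% of it in C57BL/6 and 40.9% and 38.9% in Hivep3-/- mice, and the Ccl5 and Gzma cluster, where Cd244 was highest, 16.3% and 14.4% against 27.2% and 33.0%.

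Within the 4 larger iNKT1-like clusters Cd244 was higher in both Hivep3-/- mice than in both C57BL/6 mice as well. It stood at 7.95 and 8.21 against 26.9 and 32.98 in the Klrc1 and Fgl2 cluster (log2 1.88, SE 0.22, adjusted p = 0.0050) and at 4.63 and 10.51 against 29.8 and 32.9 in the Gzmb and Ccl1 cluster (log2 1.97, SE 0.32, adjusted p = 0.019). In the interferon-signature cluster, led by Ifit3 and Isg15, it had 1 UMI in each C57BL/6 library and 45 and 28 UMIs in the Hivep3-/- libraries (adjusted p = 0.0017), a ratio of 24.3 per scaled UMI total with a 95% interval for counting error of 6.49 to 204. In the Ccl5 and Gzma cluster it stood at 35.2 and 54.9 against 97.3 and 82.8, a log2 difference of 0.999 (SE 0.22) that did not pass (adjusted p = 0.088). The background share of genes passing was 0.529%, 0.441%, 0.552% and 0.452% in these 4 clusters. In all 4, the libraries of the genotypes did not overlap. In an unnamed cluster of 1770 cells led by Cd74, Klra3 and Cxcr3, Cd244 had 1, 0, 9 and 4 UMIs and was not tested, and none of the 7 members tested passed in edgeR (1 at an unadjusted p under 0.05, beside 0.542% of all genes passing).

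Cd244 in cycling-like cells had few UMIs, 6 and 3 in C57BL/6 and 10 and 16 in Hivep3-/- mice, or 0.453 and 0.538 against 4.24 and 3.36 scaled CPM. The log2 difference of 2.89 (SE 0.52) passed (adjusted p = 0.026, beside 4.50% of all genes), but without any one of the 4 libraries it did not (adjusted p of 0.075 to 0.17), nor in DESeq2 (0.061). The largest cycling-like cluster, of 961 cells, had only 2 cycling markers among its 20 leading genes and was named from the mean level of the cycling markers, and without it Cd244 fell under the low-count filter. The 18 iNKT1 markers, all detected, summed in cycling-like cells to 506 and 550 scaled CPM in C57BL/6 but to 1916 and 1522 in Hivep3-/- mice, the 14 stage 0 markers to 1853 and 1655 against 3139 and 2960, and the 10 iNKT2 markers to 1622 and 1596 against 827 and 799. The part of this make-up in the cycling-like differences of Cd244 and of other members was not tested. In the unnamed cluster led by Tnni1 and Htra3 Cd244 had 4 and 0 UMIs in C57BL/6 and 37 and 55 in Hivep3-/- mice. These came from 219, 39, 268 and 349 cells in the same order of libraries. The log2 difference was 2.99 (SE 0.60, adjusted p = 0.011, edgeR, beside 3.45% of all genes). The 0 in C57BL/6 mouse 2 allows up to 6.84 scaled CPM. The ratio per scaled UMI total was 8.18, with a 95% interval for counting error of 3.09 to 30.7. In stage 0-like, iNKT2-like and iNKT17-like cells Cd244 fell under the low-count filter and was not tested, with 0 to 4 UMIs in every library. Over all cells it stood at 2.83, 5.55, 27.1 and 21.9 (log2 2.58, SE 0.33, adjusted p = 0.026, beside 0.814% of all genes), a value that also moves with the mix of classes and that did not pass without Hivep3-/- mouse 1 (0.22) or mouse 2 (0.087).

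Shares of cells showed where the Cd244 UMIs lay. After thinning to 2000 UMIs, 1.95% and 2.80% of C57BL/6 and 7.79% and 8.04% of Hivep3-/- iNKT1-like cells had a Cd244 UMI, and those cells held 1.07 to 1.11 UMIs each. Before thinning the shares were 3.43%, 5.83%, 22.0% and 21.1%, with median depths of 3442, 4604, 6506 and 5781 UMIs. In stage 0-like cells, where median depths were 3350.5, 5244, 5602.5 and 4919 UMIs, 0 of 360 and 0 of 121 C57BL/6 cells had a Cd244 UMI, which allows up to 0.833% and 2.48% of cells with a UMI and sets no limit on cells expressing the gene, and 1.06% and 0.482% of Hivep3-/- cells had one. Thinned, the stage 0-like shares were 0%, 0%, 0.276% and 0.269%, below every iNKT1-like share. Thinning left out 593 C57BL/6 and 157 Hivep3-/- cells.

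**Figure D3:**
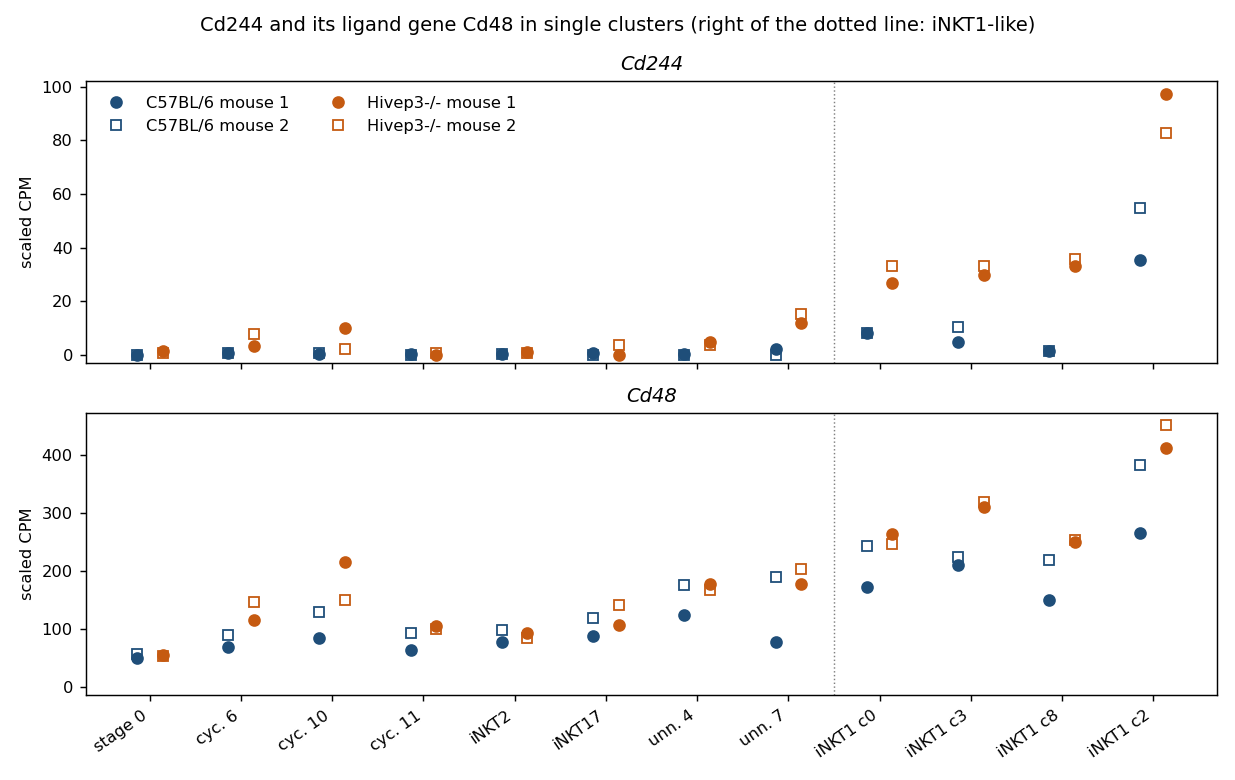
Level of Cd244 (top) and Cd48 (bottom) in scaled CPM (y axes) in stage 0-like cells and in 11 single clusters (x axis; cyc., cycling-like; unn., unnamed; c, cluster number), with 1 point per library. Cd244 was higher in both Hivep3-/- than in both C57BL/6 libraries in each of the 4 iNKT1-like clusters on the right, with 26.9 and 32.98 against 7.95 and 8.21 in cluster c0, while Cd48 was separated by less, with 263 and 247 against 173 and 242 there.

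The remaining members did not pass between the genotypes. Cd48 stood at 192 and 254 in C57BL/6 and 317 and 330 in Hivep3-/- iNKT1-like cells, with no overlap, at a log2 difference of 0.53 (SE 0.16, adjusted p = 0.28). Within single iNKT1-like clusters its log2 difference was 0.30 (Klrc1 and Fgl2), 0.40 (Ccl5 and Gzma), 0.54 (Gzmb and Ccl1) and 0.44 (interferon-signature), and none passed. In the cycling-like class it stood at 71.7 and 102 against 139 and 127 (log2 0.62, SE 0.19, adjusted p = 0.14). Sh2d1a stood at 94.1 and 120 in C57BL/6 and at 58.6 and 69.1 in Hivep3-/- iNKT1-like cells (log2 -0.76, SE 0.16, adjusted p = 0.097). Both Hivep3-/- libraries were below both C57BL/6 libraries in each of the 4 larger iNKT1-like clusters as well, and the result passed in DESeq2 (adjusted p = 0.022) and with all genes kept (4.4e-04). Sh2d1a is X-linked, and the C57BL/6 group mixed a female (mouse 1, 94.1) and a male library (mouse 2, 120), whereas both Hivep3-/- libraries were male. Without the female library the log2 difference was -0.91 (adjusted p = 0.13), and the part of sex in the difference was not otherwise tested.

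Slamf6 differed most between the genotypes in iNKT17-like cells, with 30 and 18 UMIs in C57BL/6 and 6 and 11 UMIs in Hivep3-/- mice, or 23.5 and 17.9 against 5.31 and 10.1 (log2 -1.42, SE 0.42, adjusted p = 0.47). In stage 0-like cells, where it was abundant, the libraries overlapped at 389 and 439 against 379 and 468 (log2 0.020, SE 0.16, adjusted p = 0.98), so that a difference in this precursor level was not detectable with 2 mice per genotype. In cycling-like cells it stood at 86.2 and 113 against 118 and 201 (log2 0.68, SE 0.25, adjusted p = 0.22).

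Fyn and Slamf1 were higher in both Hivep3-/- libraries in stage 0-like cells, with Fyn at 47.97 and 64.03 against 84.6 and 68.5 (log2 0.47, SE 0.21, adjusted p = 0.53) and Slamf1 at 21.8 and 20.6 against 40.2 and 26.4 (log2 0.63, SE 0.29, adjusted p = 0.54). Neither difference passed. Cd84 in cycling-like cells (57.8 and 60.6 against 77.2 and 77.9, log2 0.39, SE 0.14, adjusted p = 0.19) and Ly9 in stage 0-like cells (61.1 and 65.2 against 82.6 and 76.6, log2 0.33, SE 0.18, adjusted p = 0.64) were likewise separated without a call. Sh2d1a went the other way in stage 0-like cells, at 251 and 308 in C57BL/6 and at 191 and 240 in Hivep3-/- mice. Its libraries did not overlap, but the difference did not pass (log2 -0.38, SE 0.17, adjusted p = 0.53, edgeR).

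Libraries of the genotypes did not overlap for 4 of 7 tested members in stage 0-like cells, where 39.3% of all genes tested did not overlap, and for 5 of 8 in iNKT1-like cells (37.6%). The count was 5 of 8 in cycling-like (49.2%), 1 of 7 in iNKT2-like (41.9%) and 3 of 7 in iNKT17-like cells (34.7%), and 5 of 8 over all cells (44.1%). With 2 libraries against 2 such separation was common over the whole transcriptome. The median log2 difference of the tested members was 0.020 in stage 0-like, 0.25 in cycling-like and -0.14 in iNKT1-like cells, 0.038 in iNKT2-like and 0.0049 in iNKT17-like cells, and that of all genes tested lay between -0.0031 and 0.028. None of the 7 tested members passed in stage 0-like (beside 0.596% of all genes), iNKT2-like (0.595%) or iNKT17-like cells (0.0920%) in edgeR, where 3, 0 and 1 of them had an unadjusted p under 0.05. DESeq2 also called none there.

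**Figure D4:**
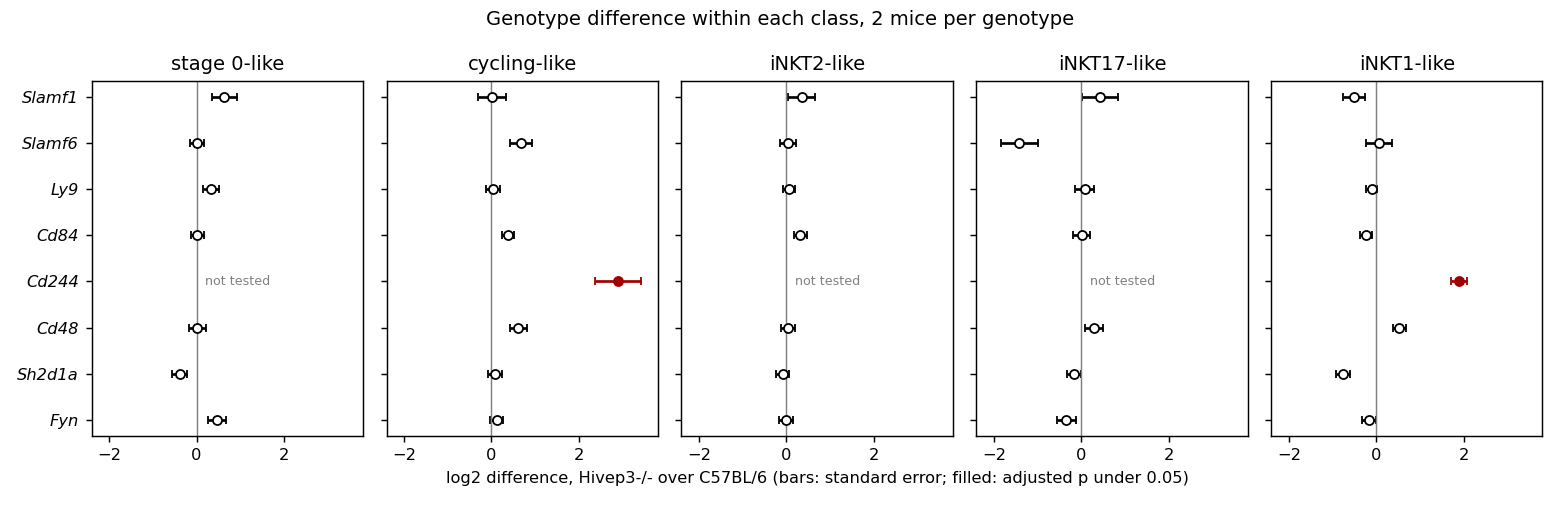
Log2 difference of Hivep3-/- over C57BL/6 (x axes) for each gene (y axis) in the 5 classes, with the standard error as bars, from 2 mice per genotype, and filled red points for an adjusted p under 0.05. Cd244 passed in cycling-like (2.89) and iNKT1-like cells (1.89) and was not tested in the other 3 classes, and no other member passed.

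Whether the genotype difference itself changed between the earliest and the most abundant class was tested as an interaction within mice, the difference in stage 0-like minus that in iNKT1-like cells. It passed for 3 of 8 members, beside 4.53% of all 10885 genes tested. For Slamf1 it was 1.12 (SE 0.33, adjusted p = 0.027), and both Hivep3-/- mice were higher in stage 0-like but lower in iNKT1-like cells (4.61 and 4.39 against 5.83 and 6.96). For Fyn it was 0.64 (SE 0.18, adjusted p = 0.015), with 84.6 and 68.5 in stage 0-like but 68.3 and 51.8 in iNKT1-like cells of Hivep3-/- mice, against 47.97 and 64.03, and 65.1 and 69.2, in C57BL/6 mice. For Cd48 it was -0.57 (SE 0.16, adjusted p = 0.019), with overlapping stage 0-like levels and higher iNKT1-like levels in Hivep3-/- mice. The iNKT1-like class had a different make-up in the genotypes, and its part in these differences was not tested. C57BL/6 means in the Klrc1 and Fgl2 and the Ccl5 and Gzma cluster were 8.07 and 2.69 for Slamf1, 207 and 324 for Cd48. Slamf1 libraries of the genotypes did not overlap in the first cluster (7.05 and 9.09 against 4.83 and 6.92) or the interferon-signature cluster. They overlapped in the Ccl5 and Gzma and the Gzmb and Ccl1 clusters.

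These 3 calls rested on all 4 libraries. Without C57BL/6 mouse 1, or without Hivep3-/- mouse 1, none passed, whereas Fyn alone passed without C57BL/6 mouse 2 (adjusted p = 0.011) and Slamf1 alone without Hivep3-/- mouse 2 (adjusted p = 0.030). The direction held in each of these fits. Ly9 (0.45, SE 0.16, adjusted p = 0.088) and Sh2d1a (0.35, SE 0.12, adjusted p = 0.087) did not pass.

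**Figure D5:**
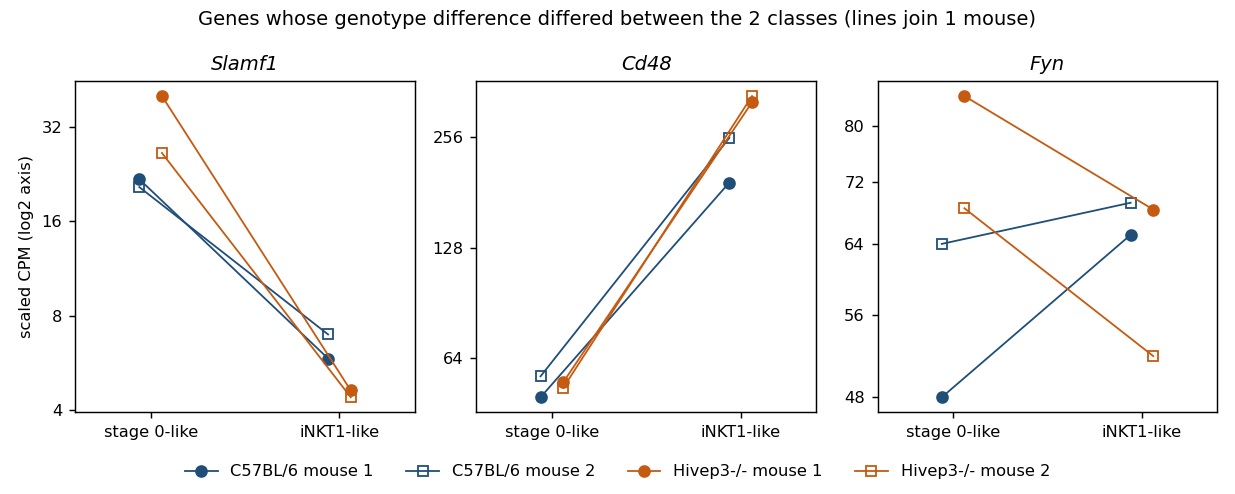
Level of Slamf1, Cd48 and Fyn in scaled CPM (y axes, log2 scale) in stage 0-like and iNKT1-like cells (x axes), with a line joining the 2 classes of 1 mouse. For Fyn the C57BL/6 lines rose, from 47.97 to 65.1 and from 64.03 to 69.2, and the Hivep3-/- lines fell, from 84.6 to 68.3 and from 68.5 to 51.8.

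Of 20 other genes of the pathway, which comprised further SLAM receptors and adaptors, kinases, phosphatases and targets of the receptors, 14 to 17 were tested in a class. Zbtb16, which encodes PLZF, the transcription factor of innate-like T cells, was lower in Hivep3-/- stage 0-like cells, at 58.3 and 62.0 against 198 and 167 (log2 -1.62, SE 0.16, adjusted p = 3.7e-04), and was the 1 of 16 tested that passed there, beside 0.596% of all genes. Cd2, a receptor that binds CD48, was higher in Hivep3-/- cycling-like cells, at 291 and 278 against 136 and 147 (log2 1.01, SE 0.12, adjusted p = 0.0062), and was again the 1 of 16, where 4.50% of all genes passed and the iNKT1 markers were higher as well. Sh2d1b1, which encodes EAT-2, a relative of SAP found in natural killer cells, was the 1 of 17 that passed in iNKT1-like cells, beside 0.875% of all genes. It had 0 UMIs in either C57BL/6 library, whereas 27 and 19 were counted in Hivep3-/- mice, at least 8.89-fold higher when set against 3 counts over the C57BL/6 group (adjusted p = 0.0496). Over all cells Sh2d1b1 had 2 and 1 UMIs in C57BL/6 and 34 and 31 in Hivep3-/- mice. The part of the make-up of the iNKT1-like class in its difference was not tested. The neighbour of Sh2d1b1, Sh2d1b2, is a near copy, and reads could be split between them. None of the 16 and 14 pathway genes tested in iNKT2-like and iNKT17-like cells passed in edgeR (0.595% and 0.0920% of all genes did), where 3 and 1 had an unadjusted p under 0.05. The median log2 difference of the tested pathway genes was highest in iNKT2-like cells (0.26) and lowest in iNKT17-like cells (-0.059), with 0.13 in the cycling-like, 0.11 in the stage 0-like and 0.093 in the iNKT1-like class.

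Over the 20 sums of a library and a class, members followed each other in 2 directions. Pearson correlations of the log2 level were 0.94 for Slamf1 with Cd84, 0.88 for Cd244 with Cd48 and 0.81 for Slamf6 with Sh2d1a, and -0.88 for both Cd48 and Cd244 with Sh2d1a. Fyn correlated weakly with the other 7 members, between -0.17 and 0.35. The genes most like each member, among 5320 with a mean of at least 20 scaled CPM, were Lonp2, Stat5b and Nrip1 for Slamf1 (r of 0.92, 0.91 and 0.90), Adk, B630019A10Rik and Rap1a for Slamf6 (0.97, 0.96 and 0.96), Crybg1, Gimap3 and Bin2 for Ly9 (0.95, 0.93 and 0.92) and Stat5b, Nrip1 and Lonp2 for Cd84 (0.95, 0.94 and 0.90). For Cd244 they were Ccl5, Elovl5 and Il2rb (0.93, 0.91 and 0.91), for Cd48 B3gat3, Efhd2 and Myo1f (0.94, 0.93 and 0.93), for Sh2d1a Pecam1, Prdx2 and Ephx1 (0.95, 0.91 and 0.91) and for Fyn Sigirr, Zap70 and Dtx3 (0.77, 0.74 and 0.74). These sums share mice, depth and the 5 classes, so the correlations describe the class pattern.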

How the data were processed

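The authors aligned the reads to mm10 with Cell Ranger 3.1.0 and deposited, per library, raw UMI counts per gene and cell barcode, with no normalization. Their submitters' processing notes also name Seurat 3.1.4. The 4 libraries held 4243 to 8374 barcodes and 25518692 to 45022744 UMIs in the cells kept. Groups came from the sample labels, and library i of one genotype was not treated as paired with library i of the other.

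Barcodes were kept from 500 up to, but not including, 4100 genes, from 1000 UMIs, and below a mitochondrial share of 6%. They were clustered (Seurat 5.3.0, 2000 variable genes, 30 principal components, mutual nearest neighbours across libraries with 20 neighbours, resolution 0.8), with the 8 members, the 20 pathway genes, 26 genes the study discusses and 6 sex-linked genes left out of the variable genes. A cluster was named where at least 3 markers of a class were among its 20 leading genes and at least 1 among the first 10. Where fewer than 3 were, it took the class with the highest mean log2 fold of its markers if that was above 0.5, again with at least 1 marker among the first 10, which named 2 clusters, of 961 (cycling-like) and 48 cells (iNKT1-like). The interferon-signature cluster was named from 6 interferon response markers among its 20 leading genes. It was counted in the iNKT1-like class by rule, as a state within iNKT1, and not from iNKT1 markers. An automatic doublet caller marked 0 to 5 cells per library and so did not work. The cells with the highest doublet scores were left out in an alternative.

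UMI counts were summed per library and class and tested with edgeR 4.0.16 (filterByExpr, TMM scaling, robust quasi-likelihood test, Benjamini-Hochberg adjustment over all genes tested, threshold 0.05). Genotypes were compared within each class. Classes were compared within each genotype with the library as a block, and the interaction was fitted with the library as a block. DESeq2 1.42.0 was an alternative. Scripts were tested on simulated data. The p-values of the genotype tests within a class measure the spread between 2 mice per genotype. Those of the stage and interaction tests measure the scatter left between the sums after the level of each library is taken out. Intervals and limits for counts of 0 (3 counts) cover counting error only.

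The members, the gene lists and the comparisons were chosen with earlier results of these data known. The text names the 8 members, the pathway genes called between genotypes in at least 1 class, the 3 genes most correlated with each member (mean of at least 20 scaled CPM) and Hivep3.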

Additional observations from a re-analysis of the deposited data

Results flagged for a closer look

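The difference between the genotypes itself differed between stage 0-like and iNKT1-like cells, by a test of that difference within mice, for 3 members. It was 1.12 for Slamf1 (SE 0.33, edgeR adjusted p = 0.027), 0.64 for Fyn (SE 0.18, adjusted p = 0.015) and -0.57 for Cd48 (SE 0.16, adjusted p = 0.019), each on the log2 scale as the Hivep3-/- over C57BL/6 difference in stage 0-like minus that in iNKT1-like cells. Among all genes tested 4.53% passed. Within a single class none of these 3 genes passed between the genotypes. The iNKT1-like class had a different make-up in the genotypes, and its part in these differences was not tested.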

How the results depend on the processing

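Over the 5 classes 2 member results passed between the genotypes, both of Cd244. With no filter on low counts 6 passed, in the Ccl5 and Gzma cluster alone in place of the iNKT1-like class 1 passed, and with 1 library left out 1 to 2 passed. With no filter more genes passed over the whole transcriptome as well. These were 234 of 13614 genes tested in stage 0-like, 1152 of 15308 in cycling-like and 381 of 15067 in iNKT2-like cells. In iNKT17-like cells 83 of 12852 passed, in iNKT1-like cells 310 of 15553, and over all cells 965 of 17680. The 1 in the Ccl5 and Gzma cluster setting was Cd244 in cycling-like cells, a class which that setting left unchanged. Each fit with 1 library left out held Cd244 in iNKT1-like cells, and none of these fits held Cd244 in cycling-like cells. The second was Slamf6 in cycling-like cells without Hivep3-/- mouse 1 (adjusted p = 0.0198) and Cd48 in cycling-like cells without C57BL/6 mouse 2 (0.04999). Without the 2 clusters named by marker level, an alternative chosen after seeing the data, 1 passed, since Cd244 in cycling-like cells fell under the filter on low counts. Over all cells 1 passed, 2 did with no filter, and 0 to 1 did with 1 library left out. Of the interaction, 3 passed, and 0 to 1 did with 1 library left out, where the lone library of a genotype was assumed to vary like the others. The cause of these changes was not tested. In C57BL/6 mice 26 stage results passed, and 25 to 28 under the alternatives. No member result changed direction while called.

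The log2 difference of Cd244 in iNKT1-like cells ranged from 0.999 to 4.47 over the alternatives, and of these it missed the threshold only in the Ccl5 and Gzma cluster (adjusted p = 0.088). Sh2d1a in iNKT1-like cells passed with no filter (adjusted p = 4.4e-04), in DESeq2 (0.022), with the replicate block (0.019) and at resolution 0.4 (0.047).

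With the mouse number as a replicate block in edgeR 4 member results passed within classes and 1 over all cells. Within classes these were Cd244 in cycling-like and iNKT1-like cells, Sh2d1a in iNKT1-like cells and Slamf6 in cycling-like cells (adjusted p = 0.013). Of all genes, 195 of 8892 tested passed in stage 0-like, 882 of 10107 in cycling-like and 464 of 9746 in iNKT2-like cells. In iNKT17-like cells 42 of 7608 passed, in iNKT1-like cells 186 of 10744, and over all cells 160 of 12291. Same-numbered mice deviated together with correlations of 0.13 to 0.18, over only 2 pairs, and the labels state no shared batch. The paper describes 2 independent experiments for each genotype. Whether same-numbered mice belonged to the same experiment was not stated, so a shared batch cannot be told apart from a shared number.

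Counts of called genes over the transcriptome moved by more than 1.5 times: 53 in stage 0-like (27 to 234), 455 in cycling-like (272 to 1152), 58 in iNKT2-like (49 to 464), 7 in iNKT17-like (5 to 132) and 94 in iNKT1-like cells (44 to 310), 100 over all cells (14 to 965) and 493 for the interaction (275 to 410).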
